A study of Bos grunniens with 6 samples.

Results

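The m6A peaks described here are the listed exon peaks of cattle-yak testis whose exon belongs to a transcript of 1 or 2 exons. They were chosen from the exon number in the annotation of each peak and from a listed width of at most 50000 bp. Of the 16186 listed peaks, 1215 were members (7.51%), made up of 483 peaks in single-exon transcripts and 732 peaks in two-exon transcripts. Set against all 11172 exon peaks of at most 50000 bp, the members were 10.9% (95% interval 10.3% to 11.5%, Wilson), and among exon peaks up to 1000 bp wide they were 19.6%. The other 9957 exon peaks, in transcripts of 3 or more exons, served for comparison.

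The material was testis of 3 cattle-yaks, the hybrid of yak and cattle, aged 5 years and named TES5, TES6 and TES7. The tissue was removed by castration, carried no treatment, and gave 1 library enriched with an antibody against m6A (IP) and 1 input library per animal, 6 libraries in all. The peak list is 1 list for the group, with positions on the yak build LU_Bosgru_v3.0 but no score and no value per animal, while expression is given as FPKM, fragment density normalised for gene length and library size, for each input library. Peaks and genes are therefore not replicates, and the intervals on shares and medians cover counting error only.

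N6-methyladenosine (m6A) is a methyl mark that a writer complex around METTL3 places on adenosines of messenger RNA during transcription, and that reader proteins use in RNA decay, export and translation. In spliced genes, the protein complexes deposited at exon junctions keep the mark away from nearby sequence, so that long exons and last exons carry most of it. Genes without introns have no such junctions. Many of them are copies made by reverse transcription of a spliced RNA, and testis is known for expressing such copies, while others are receptors, transcription factors and signal inhibitors whose coding sequence lies in 1 exon.

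Markers of Sertoli cells were present in all 3 input libraries, with *SOX9* between 26.7 and 28.4 FPKM and *WT1* between 24.0 and 33.3 FPKM. The Leydig cell gene *STAR* lay between 100.2 and 111.9 FPKM, the smooth muscle actin gene *ACTA2* between 226.0 and 254.1 FPKM, and the spermatocyte gene *SYCP3* between 18.0 and 24.4 FPKM. None of the 6 spermatid markers sought could be matched to an identifier, since symbols are given only for genes with a peak, so spermatids could not be checked. Of the genes with a member, 356 single-exon and 471 two-exon genes had FPKM values.

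The members fell on 862 gene identifiers, of which 361 had a single-exon member, 511 had a two-exon member and 10 had both. A gene had 1 member in 612 cases, 2 in 179, 3 in 48, 4 in 17, 5 in 3 and 6 in 3. Symbols are those of the annotation, and 28.1% of single-exon genes and 31.6% of two-exon genes shared their symbol with another identifier that had a peak, against 17.9% of the genes with peaks in longer transcripts. A symbol printed here can thus stand for 1 of several copies.

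Members were narrow. The median width was 350 bp in single-exon transcripts (95% interval 340 to 396, from order statistics) and 344 bp in two-exon transcripts (299 to 389), against 1584 bp (1512 to 1667) in longer transcripts. The share at or under 1000 bp was 84.7% in the single-exon members, 83.3% in the two-exon members and 41.9% in the other exon peaks. The differences were 42.8 percentage points (Newcombe 95% interval 39.2 to 45.9) and 41.4 points (38.4 to 44.1). A listed width is the distance from first to last base on the genome, so that an intron between them counts. Short transcripts also leave less room for a wide peak. Transcripts with a peak on their own exons had median spans of 1144.5 bp (single-exon), 3112 bp (two-exon) and 35028 bp (longer). The parts of the difference that introns and span make up were not tested.

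**Figure D1:**
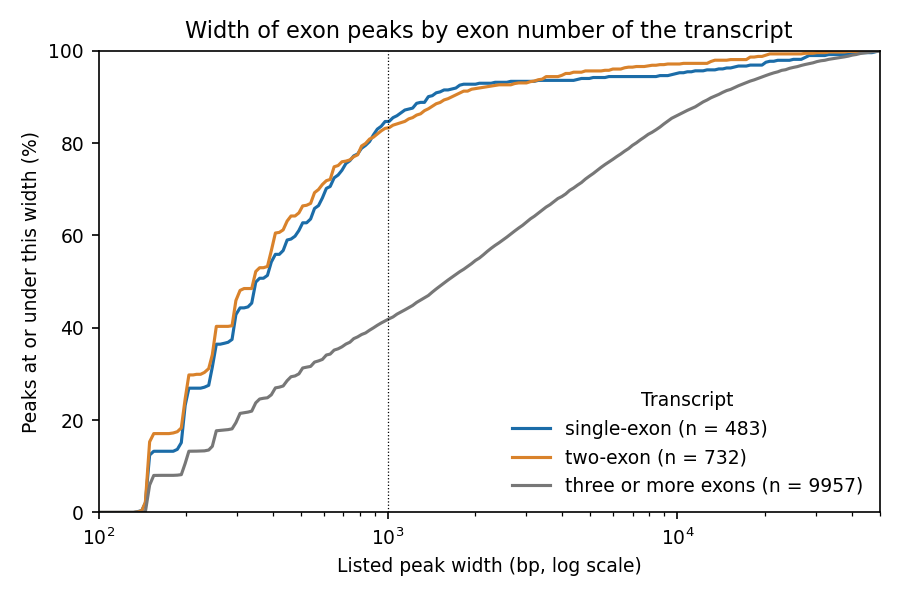
Share of exon peaks (%) at or under each listed width (bp, log scale) for single-exon, two-exon and longer transcripts, with a dotted line at 1000 bp. Both member curves pass 83% at that line, where the curve of the longer transcripts stands at 41.9%.

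The single-exon members give the clearest view, because peak and gene model have no intron between them. Of the 483, 427 lay on an exon of their own listed transcript, on 312 models of 312 to 4842 bp with a median of 1144.5 bp. The length of all 312 models was a multiple of 3 (100%), against 33.6% for the two-exon and 33.3% for the longer transcripts, whose spans include introns. The single-exon models are thus coding lengths without untranslated regions, and positions along them are positions in coding sequence. In this annotation, 1.66% of the single-exon genes also had a peak of the 3′ UTR class, against 13.0% of the two-exon genes and 20.1% of the others. A model without an annotated 3′ UTR leaves no place for such a peak, so these shares cannot be compared as traits of the peaks.

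Of the 427 peaks, 411 lay wholly inside their model, 16 contained the model and ran beyond it, and 0 crossed a single end. The edges of the 411 inner peaks followed a grid. When each model was divided into equal steps of at most 50 bp, all 411 starts and all 411 ends lay within 2 bp of a step boundary, positions that make up 10.2% of the bases. Peak edges on these genes are therefore known to about 50 bp, the steps being 44.7 to 50 bp long. With edges tied to the model in this way, the 0 peaks across a single end cannot be read as a sampled share.

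The most expressed genes of single-exon members show the pattern. *PRND* (ENSBGRG00000006063) encodes Doppel, a testis-expressed relative of the prion protein that male mice need for fertility. TES5 had 131.8 FPKM, TES6 116.3 and TES7 93.4, the highest mean of the class at 113.8 ± 19.3 (SD, n = 3). A single peak of 391 bp, chromosome 12 from 39224763 to 39225153 on the plus strand, covered 72.8% of the 537 bp coding model and left 97 bp at its 5′ end and 49 bp at its 3′ end.

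*NXT1*, a cofactor of the main mRNA export receptor, had FPKM values of 93.1, 75.1 and 82.6 in TES5, TES6 and TES7. Its peak of 189 bp (chromosome 12, 33753301 to 33753489) ran from base 235 to the last base of a 423 bp model. *CDKN1A*, which encodes the cell cycle inhibitor p21, had values of 93.4, 78.2 and 69.4 FPKM. It had a peak of 199 bp and a peak of 298 bp on a 792 bp model (chromosome 24, 25769268 to 25769466 and 25769663 to 25769960), the latter reaching the 3′ end. In both genes TES5 was the highest.

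*ARF6*, a small GTPase of membrane traffic, was the steadiest of these genes, with 61.2, 59.3 and 57.7 FPKM. Its peak of 384 bp (chromosome 11, 28986031 to 28986414) covered 72.7% of a 528 bp model. *GJA1* encodes connexin 43, the main gap junction protein of Sertoli cells, and had 55.8, 54.3 and 62.2 FPKM. Its peaks of 241 and 433 bp (chromosome 10, 62658543 to 62658783 and 62658974 to 62659406) stood on a 1152 bp model. *PRMT6*, an arginine methyltransferase of histones, had 63.8, 49.3 and 56.4 FPKM and peaks of 589 and 295 bp on a 1128 bp model.

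The remaining genes among the first 10 were *KLK15* (102.2 ± 4.10 FPKM, SD, n = 3), a kallikrein protease, *PHF20* (67.3 ± 6.03 FPKM), a chromatin reader, *LRATD1* (52.7 ± 5.13 FPKM) and *PTPA* (67.8 ± 8.73 FPKM), an activator of protein phosphatase 2A. The *PTPA* peak lay inside the 82423 bp span of that gene but on the single exon of another identifier without a symbol, ENSBGRG00000018629, whose mean was 4.05 FPKM. The value listed for *PTPA* is thus not that of the exon under the peak.

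**Figure D2:**
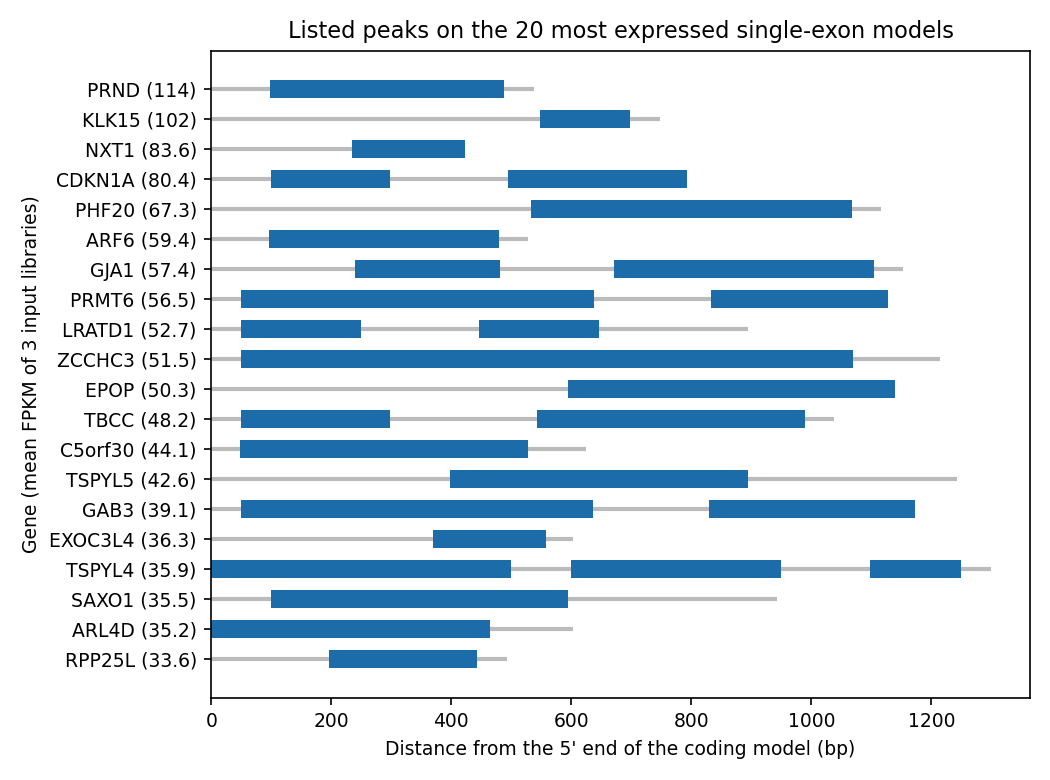
Listed peaks (blue) on the 20 single-exon coding models (grey lines, in bp from the 5′ end) with a peak inside and the highest mean FPKM of the 3 input libraries, given in brackets. *PRND* and *ARF6* had 1 peak over more than 72% of the model, *GJA1* and *PRMT6* had 2 peaks with a gap, and *TSPYL4* had 3.

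Along all 296 models with an inner peak, the peaks favoured neither end. The centre lay nearer the 3′ end than the 5′ end in 202 of 411 peaks (49.1%, 95% interval 44.3% to 54.0%), and the median position was 0.50 of the model (0.48 to 0.55). The share was 46.5% on models of up to 1000 bp, 50.0% on models of over 1000 and up to 2000 bp and 50.5% on longer ones, and each 95% interval included an equal split. Peaks came within 100 bp of the 3′ end in 38.9% and within 100 bp of the 5′ end in 34.1% of cases, and reached these ends exactly in 64 and 61 cases. The share of models under a peak was 22.3% (17.9% to 27.4%) at the first twentieth, 61.8% (56.2% to 67.2%) just past the middle and 24.7% (20.1% to 29.9%) at the last twentieth. Peaks placed anywhere inside a model cover its ends least, and the values that placement alone would give were not computed.

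**Figure D3:**
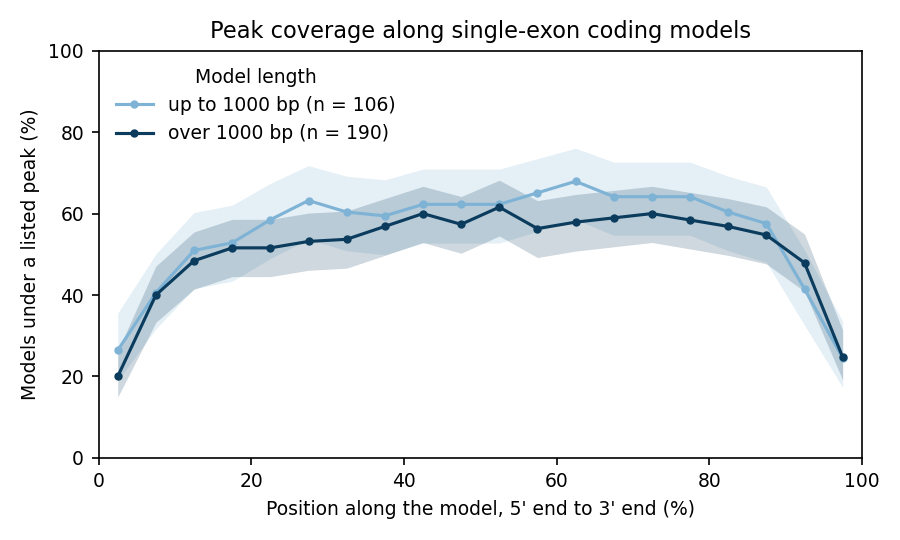
Share of single-exon coding models (%) under a listed peak at 20 positions from the 5′ end to the 3′ end, for 106 models of up to 1000 bp and 190 longer ones; bands are Wilson 95% intervals. At the first position 28 of the shorter and 38 of the longer models are under a peak; the share is 24.5% and 24.7% at the last, and lies between 51.6% and 67.9% from the fifth to the eighteenth position.

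Most models had 1 inner peak (219 of 296), 53 had 2, 15 had 3, 5 had 4, 3 had 5 and 1 had 6. Models with 1 peak had a median length of 1059 bp and those with more had 1704 bp. Across the 296 models, Spearman's rho between length and peak number was 0.49, a description over models that share the same 6 libraries. Neighbouring peaks on a model were 94 to 2077 bp apart, with a median gap of 197 bp over 115 gaps, and 76 of the gaps were at most 250 bp.

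The gene with 6 inner peaks was *IRS1*, the adaptor of insulin and IGF signalling. On its 3714 bp model the peaks were 248, 150, 199, 298, 348 and 149 bp wide and ran from base 249 to base 3565. Its FPKM was low, at 1.21, 1.20 and 1.75 in TES5, TES6 and TES7. The genes with 5 single-exon members were *ZBED6* (3.86 ± 0.991 FPKM), a repressor derived from a DNA transposon, *FBXO42* (1.71 ± 0.645), an F-box subunit of ubiquitin ligases, and *SLITRK4* (1.57 ± 0.187), a neuronal membrane protein. *CMTR2*, a methyltransferase of the mRNA cap structure, had 4 peaks and 6.29 ± 1.37 FPKM, the highest mean of the 5 models with 4 peaks. None of these 5 genes reached 10 FPKM.

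Peaks covered a median of 53.1% of the model in all, and 24 models were covered over at least 90% of their length. Coverage differed with expression, at a median of 24.1% (13.7% to 38.9%) on 27 models with a mean FPKM under 1, 45.5% (37.6% to 55.2%) on 168 models from 1 to 10, and 68.1% (63.4% to 76.9%) on 99 models of 10 or more. Spearman's rho was 0.47 between coverage and mean FPKM and -0.06 between coverage and length. These are descriptions across models, and the read depth over a model rises with its FPKM, so depth and methylation cannot be told apart here. In 7 cases a peak equalled the whole model, among them *POP7* (20.9 FPKM), a subunit of the tRNA-processing RNase P, and *TSPYL4* (17.0 FPKM, ENSBGRG00000005502), named after the testis protein TSPY; both were chosen after their values were seen.

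The 16 peaks that ran beyond their single-exon model formed a group apart. They were 9517 to 47087 bp wide, with a median of 20005.5 bp over models with a median of 1173 bp. Of their 16 genes, 11 (68.8%, 44.4% to 85.8%) carried the GO term RNA-directed DNA polymerase activity, the reverse transcriptase activity of retrotransposons, against 1 of the 296 genes with an inner peak (0.338%, 0.0597% to 1.89%). Of these genes, 11 of 16 were listed at 0 FPKM in all 3 input libraries, against 1 of the 294 genes with an inner peak and an FPKM. The depth behind a listed 0 is unknown, so it does not show that RNA was absent. These peaks reach far beyond the model they are listed under, and the transcript each was called on is not given. The listed gene, its GO term and its FPKM may therefore not belong to the RNA under the peak. Examples, chosen after their values were seen, were *SNX9* (ENSBGRG00000026695), *SAMHD1* (ENSBGRG00000004718) and *UTRN* (ENSBGRG00000021598), with peaks of 9517, 10104 and 27538 bp over models of 1158, 1245 and 1086 bp.

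Of the same 16 genes, 10 shared their symbol with another identifier that had a peak. The 2 genes with a mean of at least 1 FPKM were *KDM5A* (23.1 FPKM) and *PSPC1* (12.4 FPKM), on models of 447 and 312 bp. Wide peaks were the ones near the limit of 50000 bp. Just inside it lay peaks of 39132 bp (*PSPC1*), 41185 bp (*IQGAP1*), 47087 bp (*N4BP2L1*) and 49720 bp (*SCARA5*), and just outside lay peaks of 50566 bp (*SH3BP5*), 52975 bp (*EFNB2*), 55470 bp (*TLK1*), 55665 bp (*SKI*) and 63381 bp (*APP*). In all, 11 single-exon and 2 two-exon peaks were over the limit, and 6 of those 11 carried the same GO term.

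Two-exon members had 404 peaks in exon 2 and 328 in exon 1, so that 55.2% (51.6% to 58.8%) were in exon 2. Among the 495 on an exon of their listed transcript the share was 53.7% (49.3% to 58.1%), an interval that includes an equal split. Listed widths of all two-exon members differed between the exon labels. The median was 449.5 bp (393 to 593) in exon 1 and 296 bp (250 to 301) in exon 2, and 102 peaks of exon 1 but 20 of exon 2 were over 1000 bp. Exon 2 held 63.0% (59.0% to 66.7%) of the peaks up to 1000 bp wide and 16.4% (10.9% to 24.0%) of the wider ones. In *CAVIN1*, which encodes a coat protein of caveolae, the peak listed under exon 1 was 12894 bp of the 14209 bp gene, and the peak under exon 2 was 147 bp. Each peak carries 1 exon label, so a wide peak listed under exon 1 may also cover exon 2. On own transcripts spanning up to 2000 bp, all 15 peaks over 1000 bp were listed under exon 1. Where an exon ends is not given in the list. The part of such a peak that lies in the intron or in exon 2 was therefore not tested, nor its part in these differences.

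Of the 354 two-exon transcripts with a peak on their own exons, 144 had peaks listed under exon 1 only, 152 under exon 2 only and 58 under both. In those 58, the widest exon 1 peak was wider than the widest exon 2 peak in 41 and narrower in 14, with medians of 666 and 368.5 bp. Exon 1 and exon 2 peaks overlapped in 0 of the 58 and were a median of 422.5 bp apart. Whether listed peaks of 1 transcript can overlap at all is not given, so this 0 cannot be read as a sampled share. *HSPA2*, a testis chaperone required for meiosis in male mice, had 3 members on its 2662 bp span, of 687 and 1242 bp in exon 1 and 197 bp in exon 2, the last reaching the 3′ end. *JUN*, a subunit of the AP-1 transcription factor, had a peak of 1075 bp in exon 1 and one of 250 bp in exon 2 at the 3′ end of a 1773 bp span.

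The most expressed gene of the two-exon members was listed as *EGR2* (ENSBGRG00000025837), a zinc finger factor of the early growth response family, with input FPKM of 864.6, 406.3 and 292.3 in TES5, TES6 and TES7. TES5 was far above the other animals, and the mean of 521.1 ± 302.9 (SD, n = 3) had a coefficient of variation of 58.1%. Its symbol is carried by 2 identifiers. It had a single member of 590 bp in exon 1 (chromosome 27, 17885469 to 17886058).

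*S100B*, a calcium-binding protein, had 175.9, 186.0 and 107.2 FPKM and a peak of 3038 bp over nearly all of its 3266 bp span. *MARCKSL1*, a substrate of protein kinase C, had 166.9, 139.2 and 147.6 FPKM and peaks of 957 bp in exon 1 and 198 bp in exon 2. *PCBP1*, an RNA-binding protein that recognises C-rich stretches, had 151.6, 139.2 and 138.4 FPKM and a peak of 198 bp in exon 1. TES7 was the lowest for *S100B* and *PCBP1*, and TES6 for *MARCKSL1*.

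*MIEF1*, a factor of mitochondrial fission (130.4 ± 6.63 FPKM), *USP48*, a deubiquitinase (123.2 ± 13.7), and *STBD1*, a glycogen-binding protein (114.6 ± 8.92), followed with 1 member each. The other genes of the first 10 were *CALM3* (283.1 ± 62.3), 1 of the calmodulin genes, *ST6GALNAC1* (139.4 ± 9.72), a sialyltransferase, and *KLK15* (102.2 ± 4.10). For these 3 the peak did not overlap the listed gene: it lay on an exon whose transcript carries no gene identifier in the list.

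**Figure D4:**
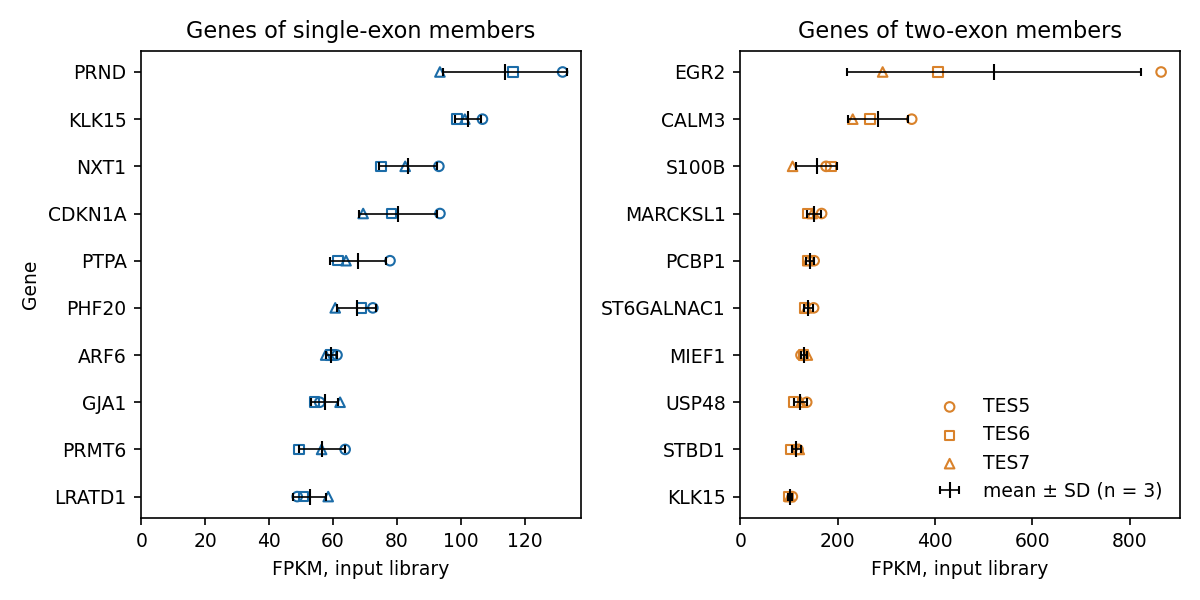
FPKM in the input libraries of TES5 (circles), TES6 (squares) and TES7 (triangles) for the 10 genes of single-exon members (left) and of two-exon members (right) with the highest mean; bars are mean ± SD (n = 3). *EGR2* spans 292.3 to 864.6 FPKM, while *ARF6* spans 57.7 to 61.2 FPKM; *PTPA*, *CALM3*, *ST6GALNAC1* and *KLK15* at right are listed for peaks whose exon is not theirs.

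This kind of assignment was a minority among the two-exon members but more frequent there than in the other classes. The annotated exon belonged to the listed gene for 88.4% of the single-exon and 67.8% of the two-exon members, against 97.6% of the other exon peaks. It belonged to another gene for 5.59%, 8.61% and 2.12%, and to a transcript that has no gene identifier for 6.0%, 23.6% and 0.301%. For that last group the difference from the longer transcripts was 5.70 points (3.91 to 8.19) in single-exon and 23.3 points (20.4 to 26.5) in two-exon members. Members were 202 of the 235 exon peaks of any width whose transcript had no gene identifier (86.0%).

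**Figure D5:**
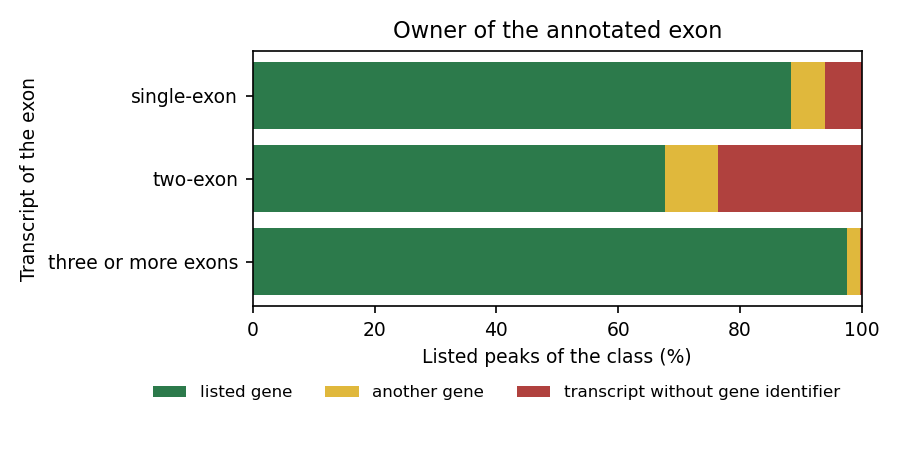
Share of listed peaks (%) whose annotated exon belongs to the listed gene (green), to another gene (yellow) or to a transcript lacking a gene identifier (red), by class of transcript. The red share is 23.6% for two-exon transcripts, 6.0% for single-exon transcripts and 0.301% for longer ones.

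The 173 two-exon members on transcripts without a gene identifier lay on 116 transcripts and 32 chromosomes or scaffolds, with a median width of 296 bp. Of them, 158 did not overlap their listed gene, at a median distance of 7054.5 bp. The transcript with the most peaks, ENSBGRT00000023712 on chromosome 22, had 6 members between 1754148 and 1759094 that are listed under *RPN1*, a subunit of the oligosaccharyltransferase, whose identifier had 0.251, 0.371 and 0.416 FPKM. The peaks listed for *IDUA* (4), a lysosomal iduronidase, and *ZFP64* (5) were likewise not on those genes. No expression value of these transcripts was used here, so the FPKM joined to such a peak is that of a neighbour.

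Members on an exon of another gene numbered 27 and 63, and all of them overlapped the listed gene as well. Where both identifiers had an FPKM, the gene of the exon was lower than the listed gene for 15 of 27 single-exon and 24 of 51 two-exon members. An example is a pair of 245 bp peaks listed for *CDC73* (22.1 FPKM), a subunit of the PAF1 complex, that lay on the single exon of *B3GALT2* (1.59 FPKM), a galactosyltransferase; it was chosen after its values were seen.

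Median levels of member genes lay below those of genes with exon peaks in longer transcripts, by an amount that 3 animals cannot bring past a 0.05 threshold. The median log2(FPKM + 1) of the single-exon genes was lower by 0.31 in TES5, 0.41 in TES6 and 0.41 in TES7, with a mean difference of -0.38 ± 0.058 (SD, n = 3). For the two-exon genes it was lower by 0.56, 0.65 and 0.62, with a mean of -0.61 ± 0.045. Both differences had the same sign in 3 of 3 animals, and the exact sign-flip permutation test (two-sided) gave p = 0.25 for each, the smallest p that 3 animals allow. With peaks of at most 1000 bp alone, an alternative chosen after seeing the data, the differences were -0.11 (from -0.19 to 0.01 among the animals) and -0.39. With genes of at least 1 FPKM in every library they were -0.19 and -0.25.

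Of the single-exon genes, 79.5% had at least 1 FPKM in every library, as did 77.3% of the two-exon genes and 88.2% of the others, differences of -8.71 points (-13.3 to -4.74) and -10.9 points (-15.0 to -7.26). Genes listed at 0 in all 3 libraries were 12 of 356, 8 of 471 and 35 of 5788. Of those 12 single-exon genes, 11 were among the 16 genes whose peak contained the model and ran beyond it. A single listed peak of any class was found for 65.9% of the single-exon genes and 50.1% of the two-exon genes, against 44.4%.

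Between animals, member genes with at least 1 FPKM in every library had a median coefficient of variation of 13.4% in both classes (11.8% to 14.8% and 11.9% to 15.3%), against 11.4% (11.1% to 11.7%) in the others. Without TES5 the medians were 8.70% (single-exon) and 8.19% (two-exon). They were 12.6% and 12.4% without TES6, and 12.8% and 11.5% without TES7. The others were not recomputed in this way, so whether TES5 weighed on member genes in particular was not tested. With at least 10 FPKM in every library the member medians were 9.13% (single-exon) and 9.50% (two-exon). Member genes also had lower levels. Over all genes with a value, the median of the mean FPKM was 5.18 (single-exon), 4.46 (two-exon) and 7.32 (others). The part of level in the higher coefficient of variation of member genes was not tested. Pearson's r across genes on log2(FPKM + 1) was 0.97 for TES5 with TES6, 0.96 for TES5 with TES7 and 0.98 for TES6 with TES7 over the single-exon genes, and 0.98, 0.98 and 0.99 over the two-exon genes. Genes are not independent replicates, and these values only describe how alike the libraries are.

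Among the testis retrogenes and spermatid genes of few exons, 2 single-exon and 4 two-exon genes had members, 3 and 6 in number. These members were 0.621% and 0.820% of the class, against 0.0201% of the other exon peaks. *PDHA2*, the testis copy of a pyruvate dehydrogenase subunit, had 5.70 FPKM in TES5, 3.94 in TES6 and 0.554 in TES7, and peaks of 244 and 293 bp on its 1167 bp model. *TSSK1B*, a kinase of spermatids, had 1.79, 1.27 and 0.179 FPKM and a 197 bp peak, and the related *TSSK3* had 6.81, 5.73 and 3.81 FPKM and a 1139 bp peak. *HSPA2* had 44.3, 28.0 and 26.1 FPKM. *HSPA1L*, another chaperone, had 2.78, 1.43 and 1.31 FPKM, and *ACTRT3*, an actin-related protein, had 0.195, 0.378 and 0.143 FPKM. Of these 6 genes, 5 were highest in TES5 and lowest in TES7, and *ACTRT3* was highest in TES6.

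Of the 5 spermatocyte markers sought, *SYCP1*, *SYCP2* and *SYCP3* were matched. *SYCP1* was 6.71, 4.76 and 4.85 FPKM, and *SYCP3* was 24.4, 18.0 and 19.8 FPKM, both highest in TES5. Of the 4 *SYCP2* identifiers, those at 7.32, 6.14 and 3.69 FPKM and at 4.98, 4.46 and 3.64 FPKM were highest in TES5, the one at 0.770, 0.883 and 0.749 FPKM was highest in TES6, and the last was listed at 0 in all 3. The matched spermatogonial markers were lowest in TES5, with *ZBTB16* at 6.61, 8.76 and 11.2 FPKM, *KIT* at 8.64, 9.23 and 12.2 FPKM and *GFRA1* at 0.572, 0.936 and 0.863 FPKM. In bulk tissue, fewer cells of a type and less RNA per cell cannot be told apart, and the part of germ cell content in these differences was not tested. Of the 3 peptide hormone and gonadal factor identifiers with a peak, *INHBB*, the inhibin and activin beta B subunit (26.0 ± 5.08 FPKM, a 590 bp peak in exon 2), and *GDF9*, a growth factor of the TGF-beta family (1.70 ± 0.503, 2 peaks in exon 2), had two-exon members and 0 had a single-exon member.

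Transcription factors were the most frequent of the 8 GO terms counted. Genes with the GO term for RNA polymerase II-specific DNA-binding factors were 7.52% (5.06% to 11.0%) of the annotated single-exon genes, 13.7% (10.7% to 17.3%) of the two-exon genes and 5.69% (5.09% to 6.35%) of the others. Zinc finger genes had 34 single-exon members on 25 genes and 82 two-exon members on 46 genes, which is 7.04% and 11.2% of the members against 4.25% of the other exon peaks. Their median level was 4.67 FPKM in the single-exon and 5.31 FPKM in the two-exon genes, and 22 of 25 and 36 of 46 reached 1 FPKM in every library. Of the 34 and 82 zinc finger members, 28 and 64 lay on an exon of the listed gene. Lists and GO terms go by the listed gene, which is not always the gene of the exon.

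After *EGR2*, the most expressed zinc finger genes with two-exon members were *ZBTB7B* (34.1 ± 2.70 FPKM), a BTB-domain repressor, and *ZFP36L2* (33.3 ± 2.43) and *ZFP36L1* (23.9 ± 1.36), which bind AU-rich elements and speed mRNA decay. *ZNF574* (23.1 ± 2.97) had 4 members, of 3467 bp in exon 1 and of 792, 248 and 199 bp in exon 2. With single-exon members, *ZNF773* (26.4 ± 1.87; 1 of 10 identifiers of that symbol), *ZNF830* (18.4 ± 2.50) and *ZNF524* (14.8 ± 0.818) led. The copies named *UBE2M*, after a NEDD8-conjugating enzyme, had 4 single-exon members on 2 identifiers and 8 two-exon members on 4, of 45 listed peaks, and the copies named *ZNF773* had 3 and 2 of 26.

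SOX, FOX and POU factors had 5 single-exon members on 4 genes and 13 two-exon members on 7. These were 1.04% and 1.78% of the class, against 0.301% of the other exon peaks. *SOX3*, the X-linked relative of the sex-determining gene SRY, had 34.0, 27.6 and 31.5 FPKM and peaks of 148 and 295 bp on an 834 bp model. *SOX12* (27.9 ± 1.53 FPKM) had a 796 bp peak over most of its 945 bp model, and *SOX4* (20.2 ± 2.52) had 2 peaks in exon 1. The FOX genes *FOXR2*, *FOXC1*, *FOXJ1* and *FOXF1* had means of 0.391 to 1.05 FPKM, and *SOX11* had 3 two-exon members on an identifier at 3.83 ± 0.411 FPKM. *FOXC1* had 3 members at 0.900 ± 0.163 FPKM.

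Early response and bZIP factors had 2 and 8 members, on 2 and 6 genes that all reached 1 FPKM in every library. The members were 0.414% and 1.09% of the class, against 0.0201% of the other exon peaks. *JUN* had 51.2, 36.2 and 38.7 FPKM, and *IER2*, an immediate early gene with a 382 bp peak on its 669 bp model, had 34.0, 21.96 and 19.6 FPKM, both highest in TES5 as was *EGR2*. *MAFK* (33.1 ± 4.97 FPKM), a small MAF factor, and *CEBPG* (16.1 ± 0.828), a bZIP partner of other factors, were not highest in TES5. Homeobox and bHLH factors had 2 and 5 members (0.414% and 0.683% of the class, against 0.191% of the other exon peaks). Of their 2 single-exon genes, *OLIG1* (10.2 ± 3.03 FPKM) was the more expressed.

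Receptors had 20 members on 15 single-exon genes (4.14% of the class) and 9 members on 7 two-exon genes (1.23%), against 0.542% of the other exon peaks. The GO term for G protein-coupled receptor activity gave 2.94% (1.55% to 5.49%) and 2.40% (1.31% to 4.36%), against 0.438% (0.292% to 0.656%). *GPRC5B*, an orphan receptor, had 25.7, 19.7 and 24.7 FPKM and peaks of 343 and 197 bp. *FZD1*, a Frizzled receptor for Wnt ligands, had 13.8, 10.8 and 10.04 FPKM and 3 peaks of 448, 498 and 349 bp from the 5′ end of its 1938 bp model onward. *ADORA1*, the adenosine A1 receptor, led the two-exon receptors with 50.0, 49.0 and 48.8 FPKM and a 343 bp peak at the 3′ end of exon 2. Of the 15 single-exon receptor genes, 9 reached 1 FPKM in every library. Many receptor and inhibitor genes have few exons, and the shares of such lists were not set against all few-exon genes of the annotation.

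Feedback inhibitors of signalling had 8 single-exon members on 8 genes (1.66% of the class) and 1 two-exon member (0.137%), against 0.121% of the other exon peaks. They were *TOB1* (29.7 ± 2.63 FPKM), an antiproliferative factor that binds the deadenylase complex, *SOCS5* (14.3 ± 1.23), *SOCS4* (10.1 ± 1.28) and *SOCS3*, inhibitors of cytokine signalling, the dual specificity phosphatases *DUSP14* (13.4 ± 0.910) and *DUSP21* (11.3 ± 0.690), and *SPRY1* and *SPRY2*, inhibitors of receptor tyrosine kinase signalling. The *SPRY1* peak of 864 bp left 48 bp free at each end of a 960 bp model. The two-exon member was on *TOB2* (10.1 ± 1.16 FPKM).

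Ubiquitin E2 and RING genes had 13 single-exon and 12 two-exon members (2.69% and 1.64%, against 1.26%), led by *TRIM13* (15.3 ± 5.06 FPKM) and *RNF139* (13.9 ± 2.55 FPKM), both ligases of the endoplasmic reticulum membrane. KLHL, KBTBD and BTB genes had 1 and 10 (0.207% and 1.37% of the class, against 0.552% of the other exon peaks), and heat shock proteins 2 and 5 (0.414% and 0.683%, against 0.422%). Histones had 1 and 2 (0.207% and 0.273%, against 0.0301%), and protocadherins 0 and 2 (0.273% of the two-exon members, against 0.362%). Some of these shares were thus at or below those of the other exon peaks. The histone genes included *H3-4* (7.94, 3.00 and 4.64 FPKM), lowest in TES6, and *H2BC21* (6.51 ± 0.568 FPKM). Genes with symbols beginning RPL or RPS had 0 members of either class among 14 identifiers with a peak. They held 0.0703% of the other exon peaks. Members were found on 12.6% of all genes with an exon peak of at most 50000 bp. With 14 identifiers the 0 therefore cannot be read as an absence. The GO term for RNA-directed DNA polymerase activity was carried by 5.56% of the single-exon and 7.91% of the two-exon genes, against 17.5% of the others, and that for spermatogenesis by 1.96%, 3.12% and 1.22%, with overlapping intervals for the single-exon genes and the others. The term nucleosome covered 2 single-exon genes (0.654%) and 2 two-exon genes (0.480%), against 0.0761% of the others. Homophilic cell adhesion covered 2 (0.654%) and 2 (0.480%), against 0.514%. Structural constituent of ribosome covered 4 (1.31%) and 6 (1.44%), against 0.723%. Ubiquitin protein ligase activity covered 4 (1.31%) and 3 (0.719%), against 0.837%. For each of these terms, the intervals of both member classes overlapped that of the others.

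Chromosome X held 31 of the 361 single-exon genes (8.59%, 6.12% to 11.9%) and 32 of the 501 two-exon genes without a single-exon member (6.39%, 4.56% to 8.88%), against 185 of 5954 others (3.11%, 2.70% to 3.58%). By peaks, the difference was 5.82 points (3.56 to 8.71) for single-exon and 2.79 points (1.26 to 4.76) for two-exon members. These shares cannot be set against all few-exon genes of the X, since a chromosome is listed only for genes with a peak. *GAB3* (35.4, 38.9 and 43.1 FPKM), listed after a signalling adaptor, *SOX3* and *ARMCX3* (21.9, 29.3 and 27.2 FPKM), a mitochondrial protein of a mammalian X-linked family, were the most expressed single-exon genes there, and *HNRNPH2* (26.6 ± 2.97 FPKM), a splicing factor, led the two-exon genes there whose peak lay on the listed gene. The MAGE family genes *MAGEB18*, *MAGEH1* and *MAGEE2* were also among the single-exon genes, at 5.92 ± 3.38, 17.6 ± 2.40 and 0.856 ± 0.238 FPKM.

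Chromosome 20 was picked out after its count was seen. It held 36 single-exon genes (9.97%, 7.29% to 13.5%) and 37 two-exon genes (7.39%, 5.41% to 10.01%), against 352 others (5.91%, 5.34% to 6.54%), and 13, 12 and 63 of these were zinc finger genes. Chromosome Y held 2 and 6 genes (0.554%, 0.152% to 2.00%, and 1.20%, 0.550% to 2.59%), against 34 others (0.571%, 0.409% to 0.797%). Members without a gene symbol were 1.04% of the single-exon and 5.74% of the two-exon peaks.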

How the data were processed

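Per the authors, Trimmomatic was used for read trimming and SortMeRNA for the removal of rRNA, and uniquely mapped reads from HISAT2 2.0.4 on LU_Bosgru_v3.0 (Ensembl release 99) were kept. They called m6A peaks with MeTDiff against input (fragment length 200, peak p 0.01, FDR 0.05, then p of at most 0.05 and fold of at least 1.5) and annotated them with ChIPseeker. The deposited list gives positions and widths in bp for the pooled group, and the deposited FPKM values cover 20953 genes in the 3 input libraries. The program for FPKM is not given in the sources used here. Read counts and depth per library are not kept in these tables, so no detection limit per gene can be given.

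Members were read from the annotation column and joined to FPKM by gene identifier. A gene with a single-exon member counted as single-exon, otherwise one with a two-exon member as two-exon, otherwise as other. Shares had Wilson, differences of shares Newcombe and medians binomial order-statistic 95% intervals. Expression was compared on log2(FPKM + 1) within each animal. Named genes were, for each class, the 10 with the highest mean FPKM, the 5 with the most members, up to 5 per list, those on X and Y, and those nearest the width limit. Genes outside this rule were chosen after their values were seen. The members, lists and rule were chosen with earlier results of these data known. Python 3.11.15, pandas 2.3.3, numpy 2.4.6, SciPy 1.17.1 and matplotlib 3.10.9 were used, and the functions were tested on simulated peaks. A genome sequence of this build was not used here, so motifs were not analysed. A few named genes are not reported here.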

Additional observations from a re-analysis of the deposited data

How the results depend on the processing

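The count of members stayed within 1.5 times under unique intervals, merging within 100 bp, a minimum of 1 FPKM in every library, the exon of the listed gene, or no width limit, at 385 to 494 single-exon and 496 to 734 two-exon peaks. Members were 19.6% of the exon peaks of at most 1000 bp, 9.54% with at least 1 FPKM, 8.68% with the exon of the listed gene and 12.6% by gene. With at least 1 FPKM the median widths were 397, 393 and 1867 bp in single-exon, two-exon and longer transcripts, and 1668.5 bp in the last without a width limit. At 500 bp the shares of narrow peaks were 62.7%, 66.4% and 31.1%, and at 2000 bp 92.8%, 91.7% and 54.5%. The share in exon 2 was 63.0% for peaks of at most 1000 bp, 53.7% on an exon of the listed transcript and 53.5% with at least 1 FPKM. Genes expressed in every library were 89.0% and 85.1% at 0.5 FPKM, 86.8% and 82.2% by a mean of 1 FPKM, and 80.9% to 82.9% and 78.3% to 79.8% with an animal left out. Merging gave 71.2% and 56.1% of genes with a single peak. The median coefficient of variation was 9.13% and 9.50% at 10 FPKM, and 8.70% to 12.8% and 8.19% to 12.4% with an animal left out. Mean expression differences stayed negative under each alternative run, including 2 added after seeing the data (peaks overlapping the listed transcript, -0.39 and -0.58, and peaks up to 1000 bp, -0.11 and -0.39, the first positive in 1 animal), at -0.41 to -0.36 and -0.63 to -0.59 with an animal left out and -0.48 and -0.57 by the gene of the exon. The centre position was 0.50 to 0.51, and of the 123 named genes, leaving out an animal moved 2 means by over 1.5 times, *PDHA2* from 3.40 to 2.25 FPKM without TES5 and *ZFP64* from 0.0446 to 0 without TES6. Causes were not tested. No paired analysis was possible because IP libraries have no values of their own to set against the input of the same animal, while the expression differences between gene classes were already taken within each animal.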
